A study of Mus musculus with 16 samples.

Results

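The subject is the mutually exclusive exon (MXE) events of the mouse left ventricle. In such an event a spliced RNA carries 1 of 2 neighbouring exons between the same flanking exons. Members are all events that the splicing program rMATS listed as MXE in any of 3 deposited tables, and those averaging 10 or more junction reads per library in each group compared are described. The tables hold 5357 distinct MXE events among 58091 distinct events of 5 types. Of 3619 MXE events in the table of P635L Ctr and WT Ctr, 3160 passed the read minimum and lay in 1773 genes. In the table of P635L Tnpo3 and WT Ctr 3154 of 3585 passed, and in the table of WT Tnpo3 and WT Ctr 2671 of 3075. Among events of the first table, 38 with a mean of 10 to 11 reads, just inside the minimum, had a median absolute difference in level of 0.159, and 33 with 9 to 10 reads, just outside, had 0.062.

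The study compared 4 groups of 4 Bl6J mice, males and females, each mouse giving 1 RNA library from the left ventricle. Both alleles of Rbm20, the gene of a splicing factor of heart muscle, carried the P635L mutation in the P635L groups and were wild type (WT) in the others. All received 1e12 viral genomes of AAV9 by tail vein at 4 weeks of age and were taken at 16 weeks, 12 weeks later. The virus carried Tnpo3, which encodes a nuclear import receptor (groups WT Tnpo3 and P635L Tnpo3), or a control construct, pCAG-iCre-T2A-eGFP (groups WT Ctr and P635L Ctr), so that control hearts also carried virus with Cre recombinase and a fluorescent protein. The sex of single mice is not part of what was analysed.

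Mutually exclusive exons arise mostly from exon duplication. Both copies encode the same stretch of a protein with different residues, and a transcript uses one or the other according to cell type or developmental stage. In heart and skeletal muscle the choice sets the form of tropomyosins, of pyruvate kinase, of the mitochondrial phosphate carrier, of MEF2 transcription factors and of the cardiac calcium channel. RBM20 acts mainly by repressing exons of titin and of other sarcomere and calcium-handling genes, and mutations in its arginine- and serine-rich stretch, where P635L lies, disturb its entry into the nucleus.

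For each event the tables list 1 of both exons, which is the first in the direction of transcription and is called the upstream exon below. Its inclusion level is the share of the upstream exon in the junction reads of both exons, corrected for length. It runs from 0 (all such reads are of the downstream exon) to 1 (all are of the upstream exon). Transcripts with neither exon do not enter it. The letters of 4 pairs show how alike such exons are. The Tpm2, Actn4 and P4ha2 pairs are shown because their use changed, and the Pkm pair as an example that was not called in any comparison. Coordinates of upstream exons are those of the deposited tables (GRCm39 per the submitters' processing notes), and the letters are coding sequence of GENCODE M21 transcripts (GRCm38), written 5′ to 3′. Capitals mark the positions at which both exons of a pair differ. The P4ha2 exons differ in length and carry no capitals.
Tpm2 upstream exon, chr4:43519003-43519078, minus strand: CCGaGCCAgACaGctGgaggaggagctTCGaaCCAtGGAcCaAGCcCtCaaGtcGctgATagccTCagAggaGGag
Tpm2 downstream exon, chr4:43518644-43518719, minus strand: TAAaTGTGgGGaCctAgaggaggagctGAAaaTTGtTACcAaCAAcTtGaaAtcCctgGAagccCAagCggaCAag
Actn4 upstream exon, chr7:28610915-28611000, minus strand: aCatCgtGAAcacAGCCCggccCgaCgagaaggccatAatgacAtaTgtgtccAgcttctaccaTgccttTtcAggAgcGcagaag
Actn4 downstream exon, chr7:28609328-28609413, minus strand: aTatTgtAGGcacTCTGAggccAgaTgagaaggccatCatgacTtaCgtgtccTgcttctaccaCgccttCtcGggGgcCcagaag
P4ha2 upstream exon, chr11:54017064-54017123, plus strand: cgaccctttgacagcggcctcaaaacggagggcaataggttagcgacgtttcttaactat
P4ha2 downstream exon, plus strand: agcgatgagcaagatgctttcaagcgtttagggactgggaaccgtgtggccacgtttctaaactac
Pkm upstream exon, chr9:59582312-59582478, plus strand: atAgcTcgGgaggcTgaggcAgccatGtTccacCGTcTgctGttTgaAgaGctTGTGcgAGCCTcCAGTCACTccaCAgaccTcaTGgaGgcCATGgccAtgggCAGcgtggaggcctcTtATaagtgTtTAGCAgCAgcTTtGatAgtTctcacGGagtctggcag
Pkm downstream exon, plus strand: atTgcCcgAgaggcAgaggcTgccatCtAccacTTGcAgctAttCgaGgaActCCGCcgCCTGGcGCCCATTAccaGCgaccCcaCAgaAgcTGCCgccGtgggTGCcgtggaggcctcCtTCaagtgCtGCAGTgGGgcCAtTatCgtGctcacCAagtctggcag

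The Tpm2 exons are 76 bases long and identical at 41 positions (53.9%). The Actn4 exons are 86 bases long and identical at 65 positions (75.6%), and the Pkm exons are 167 bases long and identical at 103 positions (61.7%). The P4ha2 exons have 60 and 66 bases, so either one keeps the reading frame relative to the other.

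Gene counts totalled 28493249 to 85922669 per library, and junction reads over MXE events 4602818 to 12896922 per library in the table of P635L Ctr and WT Ctr. A single gene, ENSMUSG00000119584, took 19.96% to 22.65% of the counts in WT Ctr replicates 2 and 4 and WT Tnpo3 replicate 4, and at most 5.298% in any other library. The splicing tables do not name their libraries, so libraries are given there by listed position and cannot be tied to these replicates. Whether reads were counted by strand is not given in the sources used here, so reads of overlapping antisense genes cannot be told apart. Mean Tnpo3 expression was 44.8 ± 3.29 CPM (counts relative to library size; SD, n = 4) in WT Ctr, 320.0 ± 126 in WT Tnpo3, 44.5 ± 2.72 in P635L Ctr and 464 ± 214 in P635L Tnpo3, as labelled. The 8 ventricular muscle markers summed to 83500 to 100000 CPM in WT Ctr and 55900 to 59900 in P635L Ctr, while the 3 measured of 5 atrial markers summed to 155 to 412 and 5150 to 9820 CPM. Nppa, the atrial natriuretic peptide that stressed ventricles also make, led this rise (264 ± 107 to 7540 ± 1960 CPM, log2 fold change 4.84, edgeR adjusted p = 1.85e-05), and Myl7 and Sln fell under the count filter.

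In the annotation, most MXE events were not pairs that replace each other. The downstream exon was identified by exon lengths and spacings in GENCODE M21. The classes refer to annotated transcripts between the flanking exons of the event, and joint use with other flanking exons was not checked. Of the 3160 events with enough reads in P635L Ctr and WT Ctr, 115 (3.64%) had exons used there only singly. In 190 (6.01%) the exons occur alone in some transcripts and together in others. In 2379 events (75.3%) the exons occur together only. A transcript with both exons gives reads to both sides of such an event, so a level near the middle does not measure a choice. In 381 events (12.1%) the downstream exon could not be identified from annotated transcripts, though it may still be an annotated exon. In 69 the upstream exon with its flanking exons had no unique match, and 26 events lay in genes that the annotation lacks.

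Exclusive pairs lay more often at the ends of the scale and more often had exons of equal length. In WT Ctr 47.0% of the 115 exclusive pairs had a mean level under 0.1 or over 0.9, against 13.5% of the 2379 events with exons that occur together only. A level between 0.4 and 0.6 was found in 20% of the former and 40.6% of the latter. Among pairs with 1 identified partner, both exons had equal length in 28.7% of the exclusive pairs (29 of 101) and in 1.85% of the pairs that occur together only (40 of 2168). The length difference was a multiple of 3 in 69.3% and 38.7%. These are descriptions of the annotated pairs, several of which lie in the same gene and share reads. Over all 3160 events, 666 genes held 2 or more events each and 1107 held 1, with up to 37 in the long noncoding gene 2210408F21Rik.

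**Figure D1:**
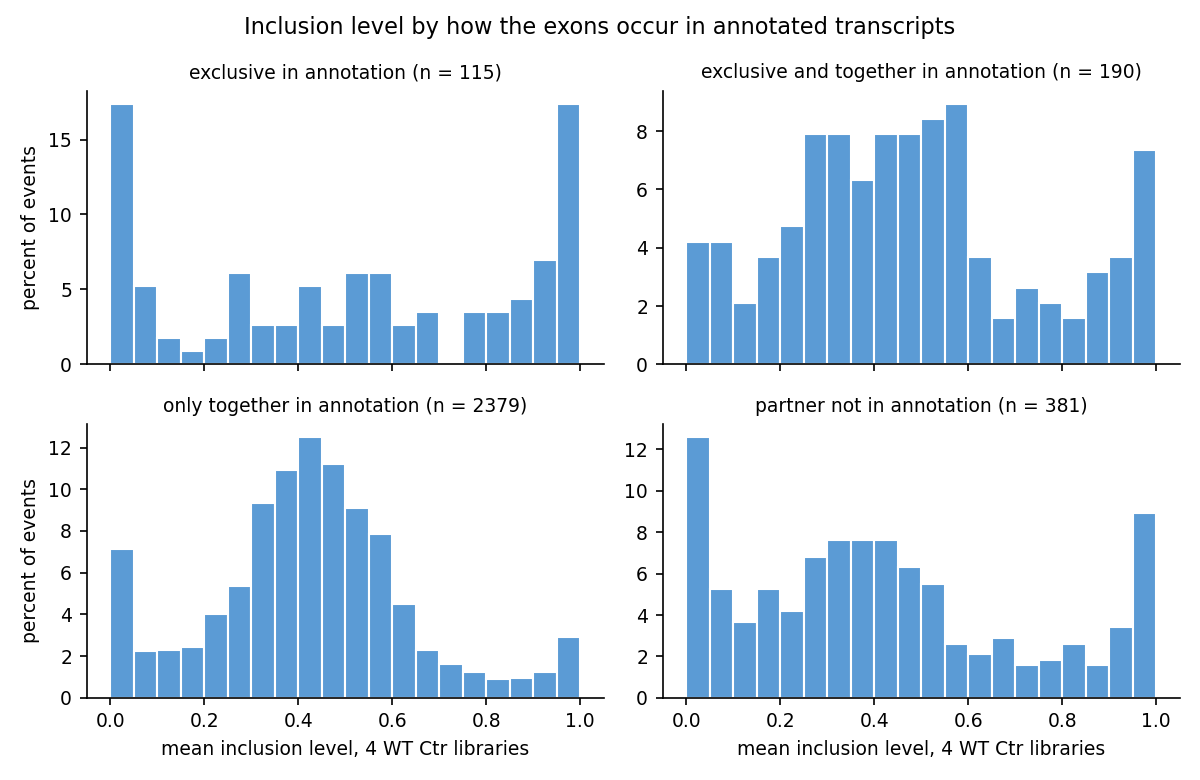
Mean inclusion level over the 4 WT Ctr libraries (x axis) against the percent of events (y axis), for 4 classes of events set by how annotated transcripts use both exons. Exclusive pairs pile up at the ends of the scale (47.0% under 0.1 or over 0.9), and events with exons that occur together only pile up near the middle (40.6% between 0.4 and 0.6).

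P635L Ctr was compared with WT Ctr to ask which exon choices differ between mutant and wild type hearts given the control virus. A change was called at an adjusted p under 0.05 (edgeR quasi-likelihood test on the reads of both exons, all event types fitted and adjusted together) with a difference in mean level of at least 0.1. Of 2995 MXE events tested, 16 were called (0.534%), against 102 of 18016 events of all types (0.566%). The share of called MXE events was thus close to the background. The other 165 events had too few reads of the rarer exon to be tested. The upstream exon was used more in 8 and less in 8 of the 16, against 0.344% and 0.222% of all events tested. The 16 lay in 10 genes: Tpm2, Arhgap10, Tmem234, Ttn, Ints10, 2210408F21Rik, P4ha2, Rps24, Actn4 and Lsp1. Expression changed in 2 of these 10 genes (Tpm2 and P4ha2), and in 275 of 1716 genes with a tested event (16.0%). The median absolute difference over all tested MXE events was 0.027. A further 9 events had an adjusted p under 0.05 in edgeR with a smaller difference. By the FDR in the authors' deposited table, with the same minimum difference, 72 of 3160 MXE events (2.28%) and 877 of 34810 events of all types (2.52%) passed, and all 16 calls were among the 72.

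**Figure D2:**
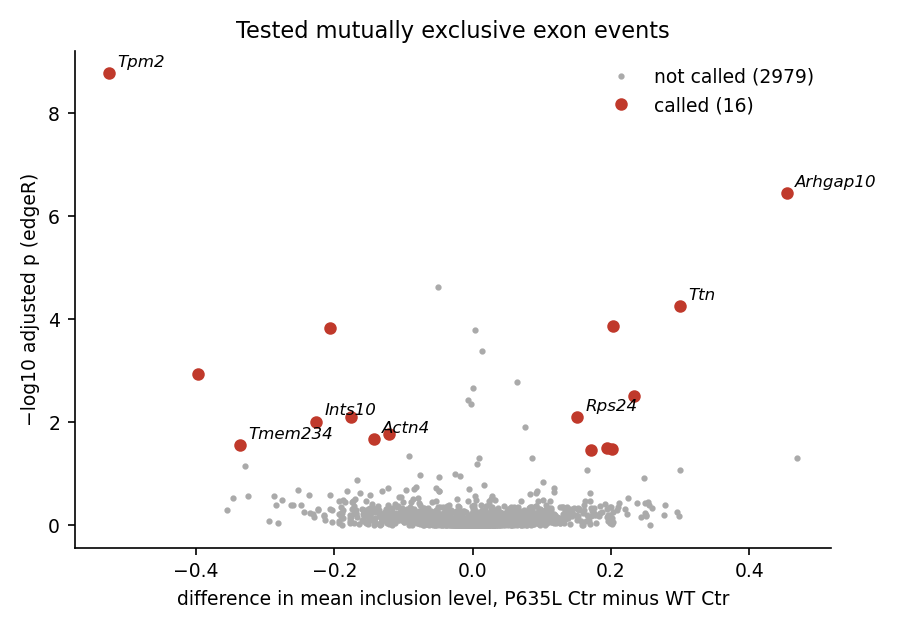
Difference in mean inclusion level between P635L Ctr and WT Ctr (x axis) against the −log10 of the edgeR adjusted p (y axis) for each of 2995 tested MXE events. Tpm2 and Arhgap10 stand farthest from the events that were not called.

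Tpm2 encodes β-tropomyosin, a coiled-coil protein that lies along actin filaments and is the minor tropomyosin of the mouse ventricle. The downstream exon is the one that skeletal muscle β-tropomyosin carries. The 4 WT Ctr libraries had 376, 254, 704 and 535 junction reads of the upstream exon and 16, 36, 11 and 14 of the downstream exon, with levels of 0.959, 0.876, 0.985 and 0.974. P635L Ctr had 1007, 1472, 580 and 799 reads of the upstream exon and 1147, 2004, 1155 and 918 of the downstream exon, with levels of 0.468, 0.423, 0.334 and 0.465. In each P635L Ctr library the downstream exon had more reads than the upstream exon, and no library overlapped with WT Ctr.

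The mean Tpm2 level fell from 0.948 ± 0.0495 to 0.423 ± 0.0625 (SD, n = 4), a difference of -0.526 (edgeR adjusted p = 1.67e-09), the largest of the called events. Each exon was also listed as a skipped exon. There the level of the upstream exon was 0.905 ± 0.0739 in WT Ctr and 0.348 ± 0.0491 in P635L Ctr (edgeR adjusted p = 9.44e-09), and that of the downstream exon 0.0255 ± 0.032 and 0.49 ± 0.07 (edgeR adjusted p = 1.67e-09). Tpm2 expression rose with it, from 47.6 ± 11 to 194 ± 33.9 CPM (log2 fold change 2.03, SE 0.26, edgeR adjusted p = 6.34e-05). Among genes, 2653 of 18662 (14.2%) changed. In bulk tissue fewer or more cells of a type and less or more RNA per cell cannot be told apart.

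Tpm2 is made by smooth muscle, fibroblasts and skeletal muscle as well as by heart muscle, so markers of these cells are given beside it. None of 5 smooth muscle markers changed between P635L Ctr and WT Ctr, and their sum was 296 to 430 CPM in WT Ctr and 296 to 371 in P635L Ctr. Of 8 fibroblast markers 7 rose and none fell, with sums of 994 to 1640 and 1580 to 2380 CPM. Of 6 skeletal muscle markers, Myh1, Myh2 and Myh4, the defining fast myosins, fell under the count filter. The fast troponins Tnnt3 (1.08 ± 0.239 to 10.8 ± 1.3 CPM) and Tnni2 (2.3 ± 0.476 to 18 ± 3.97 CPM) rose and Ckm, muscle creatine kinase, fell (1310.0 ± 153 to 640.0 ± 145 CPM; edgeR adjusted p = 4.67e-07, 1.42e-06 and 0.00102). The list summed to 1140 to 1510 CPM in WT Ctr and 546 to 848 in P635L Ctr, nearly all of it Ckm. The part of these cells in the change of Tpm2 was not tested.

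**Figure D3:**
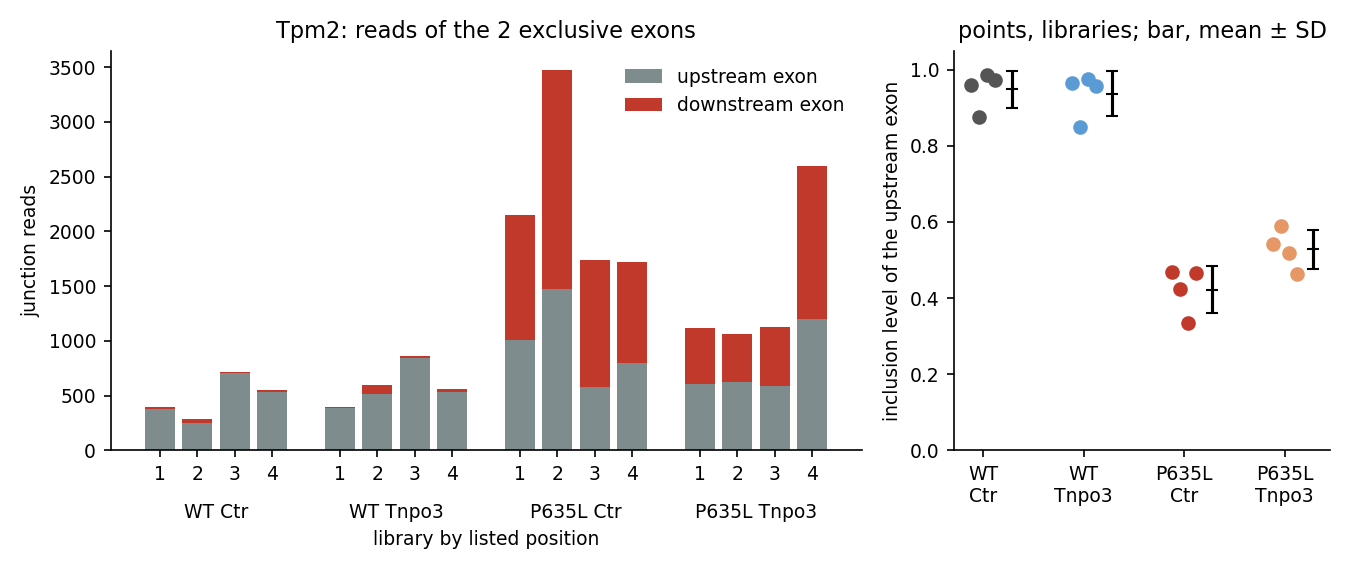
Left, junction reads of the upstream and downstream Tpm2 exon (y axis, stacked) in each of the 16 libraries by listed position (x axis). Right, inclusion level of the upstream exon (y axis) by group, with points for libraries and a bar for mean ± SD: WT libraries lie at 0.849 or above and P635L libraries at 0.589 or below.

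Arhgap10, which encodes a GTPase-activating protein, held 4 of the 16 called events. They cover neighbouring exons and share reads. In its leading event (upstream exon chr8:78109354-78109419, 66 bases, minus strand) the downstream exon could not be identified from annotated transcripts. WT Ctr levels were 0.505, 0.526, 0.475 and 0.408, and P635L Ctr levels 0.91, 0.916, 0.953 and 0.949, from 54 to 262 reads per library. The groups did not overlap. The mean rose from 0.479 ± 0.0514 to 0.932 ± 0.0221 (SD, n = 4; edgeR adjusted p = 3.6e-07). As a skipped exon, the same exon had a level of 0.445 ± 0.0844 in WT Ctr and 0.917 ± 0.0286 in P635L Ctr (edgeR adjusted p = 1.35e-07). The gene level was not called as changed (0.165 on the log2 scale, SE 0.11, edgeR adjusted p = 0.338). The other 3 called events, named after their values were seen, moved by -0.206, 0.233 and -0.398 (edgeR adjusted p = 0.000149, 0.0031 and 0.00114).

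Ttn encodes titin, the giant spring of the sarcomere and the best known RBM20 target, and held 3 called events. The leading one has its upstream exon at chr2:76692694-76692771 (78 bases, minus strand), between flanking exons 43983 bases apart. Its downstream exon could not be identified from annotated transcripts. WT Ctr had 29, 199, 41 and 217 reads of the upstream exon and 3, 174, 6 and 249 of the downstream exon, with levels of 0.909, 0.541, 0.876 and 0.473. P635L Ctr had 46, 88, 194 and 54 reads of the upstream exon and 0 of the downstream exon in all 4 libraries. That is 0 of 382 reads, which allows a share of up to 0.785% by counting error alone. All P635L Ctr levels were therefore 1.0, above every WT Ctr library.

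The difference of this Ttn event was 0.3 (edgeR adjusted p = 5.61e-05). The WT Ctr libraries at positions 2 and 4, which had the most reads, had the lower levels. The share of summed reads gave a difference of 0.463 in place of 0.3. Another listed event of the same upstream exon differed less. Its difference in the authors' deposited table (WT Ctr minus P635L Ctr) was -0.075 (rMATS FDR 1.15e-11). As a skipped exon, the same exon rose from 0.755 ± 0.193 to 1.0 (edgeR adjusted p = 0.00134). The neighbouring upstream exon at chr2:76693144-76693203 (60 bases) had WT Ctr levels of 0.755, 0.852, 0.707 and 0.876 and again no read of the downstream exon in P635L Ctr, 0 of 588 (up to 0.51%), a difference of 0.203 (edgeR adjusted p = 0.000134). With another flanking exon the same upstream exon differed by 0.0638 only, with overlapping groups (edgeR adjusted p = 0.00167). The third called event moved the other way. Its upstream exon, chr2:76680914-76680988, had levels of 1.0, 0.976, 1.0 and 0.941 in WT Ctr and 0.83, 0.784, 0.779 and 0.818 in P635L Ctr (difference -0.176, edgeR adjusted p = 0.00792). WT Ctr rested there on 4 and 11 reads at positions 1 and 3. The Ttn gene level averaged 5240 ± 3840 CPM over the WT Ctr libraries, from 1710 to 9420. Ranges were 2040 to 8350 for WT Tnpo3, 2300 to 4120 for P635L Ctr and 2050 to 3080 for P635L Tnpo3. The gene was not called as changed between P635L Ctr and WT Ctr (-0.919 on the log2 scale, SE 0.56, edgeR adjusted p = 0.311). The part of this spread in the Ttn events was not tested, since listed positions cannot be tied to these libraries.

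Actn4 and P4ha2 were the other called pairs with exclusive coding exons shown above. Actn4 encodes α-actinin-4, a crosslinker of actin filaments in non-muscle structures. Its levels were 0.842, 0.944, 0.926 and 0.937 in WT Ctr and 0.754, 0.786, 0.715 and 0.82 in P635L Ctr, without overlap. The mean fell by 0.144 (edgeR adjusted p = 0.0216) at gene levels of 151 ± 13.7 and 166 ± 2.76 CPM (edgeR adjusted p = 0.438). As a skipped exon, the upstream exon fell from 0.863 ± 0.101 to 0.574 ± 0.0924 (edgeR adjusted p = 0.0348), while the downstream exon had 0.0615 ± 0.0328 and 0.101 ± 0.00499 (edgeR adjusted p = 0.579).

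P4ha2 encodes a catalytic subunit of the prolyl 4-hydroxylase that modifies collagen. Its levels were 0.363, 0.419, 0.302 and 0.332 in WT Ctr and 0.573, 0.524, 0.468 and 0.533 in P635L Ctr, again without overlap. The mean rose from 0.354 ± 0.05 to 0.524 ± 0.0433 (edgeR adjusted p = 0.034) and its gene level fell (-0.374 on the log2 scale, SE 0.12, edgeR adjusted p = 0.0427). The paralog P4ha1 rose in gene level (log2 fold change 0.766, SE 0.18, edgeR adjusted p = 0.00879), but its exclusive pair of 71-base exons had 0.438 ± 0.0809 and 0.429 ± 0.0479 (edgeR adjusted p = 0.995). Of 8 fibroblast markers, given above, 7 rose between these groups, as P4ha1 did, while the P4ha2 gene level fell. The part of fibroblasts was not tested.

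Rps24 encodes a protein of the small ribosomal subunit with very short alternative exons near its end. The annotation has the listed exon of 18 bases (chr14:24544120-24544137) and the next of 20 bases together only. Levels were 0.216, 0.183, 0.21 and 0.216 in WT Ctr and 0.351, 0.316, 0.444 and 0.317 in P635L Ctr. The groups did not overlap, and the mean rose by 0.151 (edgeR adjusted p = 0.00792). As skipped exons, the first rose from 0.246 ± 0.0192 to 0.424 ± 0.0676 (edgeR adjusted p = 0.00279) and the second had 0.653 ± 0.104 and 0.703 ± 0.036 (edgeR adjusted p = 0.642). Rps24 has near-identical copies in the genome, and how the authors treated reads with several matches is not given in the sources used here.

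The 4 other called genes had levels that follow. Tmem234, which encodes a transmembrane protein, had levels of 0.479, 0.479, 0.342 and 0.888 in WT Ctr and 0.198, 0.201, 0.29 and 0.151 in P635L Ctr (difference -0.337, edgeR adjusted p = 0.0282). One WT Ctr library, at position 4, stood far above the rest there. As skipped exons both Tmem234 exons were rare: the upstream exon had 0.0587 ± 0.0221 and 0.0428 ± 0.0129 (edgeR adjusted p = 0.708), and the downstream exon rose from 0.065 ± 0.0442 to 0.172 ± 0.0252 (edgeR adjusted p = 0.033). Ints10, a subunit of the Integrator complex that cleaves small nuclear RNAs, had 0.362, 0.326, 0.262 and 0.364 against 0.08, 0.089, 0.118 and 0.119 (difference -0.227, edgeR adjusted p = 0.00973). As skipped exons, its upstream exon had 0.194 ± 0.044 and 0.0742 ± 0.0271 (edgeR adjusted p = 0.0731) and its downstream exon 0.328 ± 0.0354 and 0.405 ± 0.048 (0.661). The noncoding 2210408F21Rik moved from 0.413 ± 0.0558 to 0.615 ± 0.0411 (edgeR adjusted p = 0.033). Lsp1, an actin-binding protein of white blood cells, moved from 0.203 ± 0.0662 to 0.0825 ± 0.0159 (edgeR adjusted p = 0.0167), with exons that occur together only in the annotation. Macrophage markers summed to 250.0 to 766 CPM in WT Ctr and 207 to 291 in P635L Ctr, with 1 of 7 lower. Lymphocyte markers summed to 2.93 to 57.6 and 5.11 to 9.15 CPM, also with 1 of 7 lower. The part of these cells in the change of Lsp1 was not tested.

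Calls were lost when single libraries were left out. Tpm2, Arhgap10, the leading Ttn event and Rps24 stayed called without any 1 library. The Actn4 call was lost without P635L Ctr position 1 or 3 or WT Ctr position 2, 3 or 4 (edgeR adjusted p up to 0.159), P4ha2 without P635L Ctr position 1, 2 or 4 or WT Ctr position 1, 3 or 4 (up to 0.138), Lsp1 without WT Ctr position 1 or 2 (up to 0.127) and Ints10 without WT Ctr position 4 (0.0528). Tmem234 was lost without P635L Ctr position 1, 2 or 4 or WT Ctr position 1, 2 or 4, and its difference fell to -0.223 without WT Ctr position 4 (edgeR adjusted p = 0.218). 2210408F21Rik was lost without any of the 8 libraries other than WT Ctr position 4 (edgeR adjusted p up to 0.145).

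**Figure D4:**
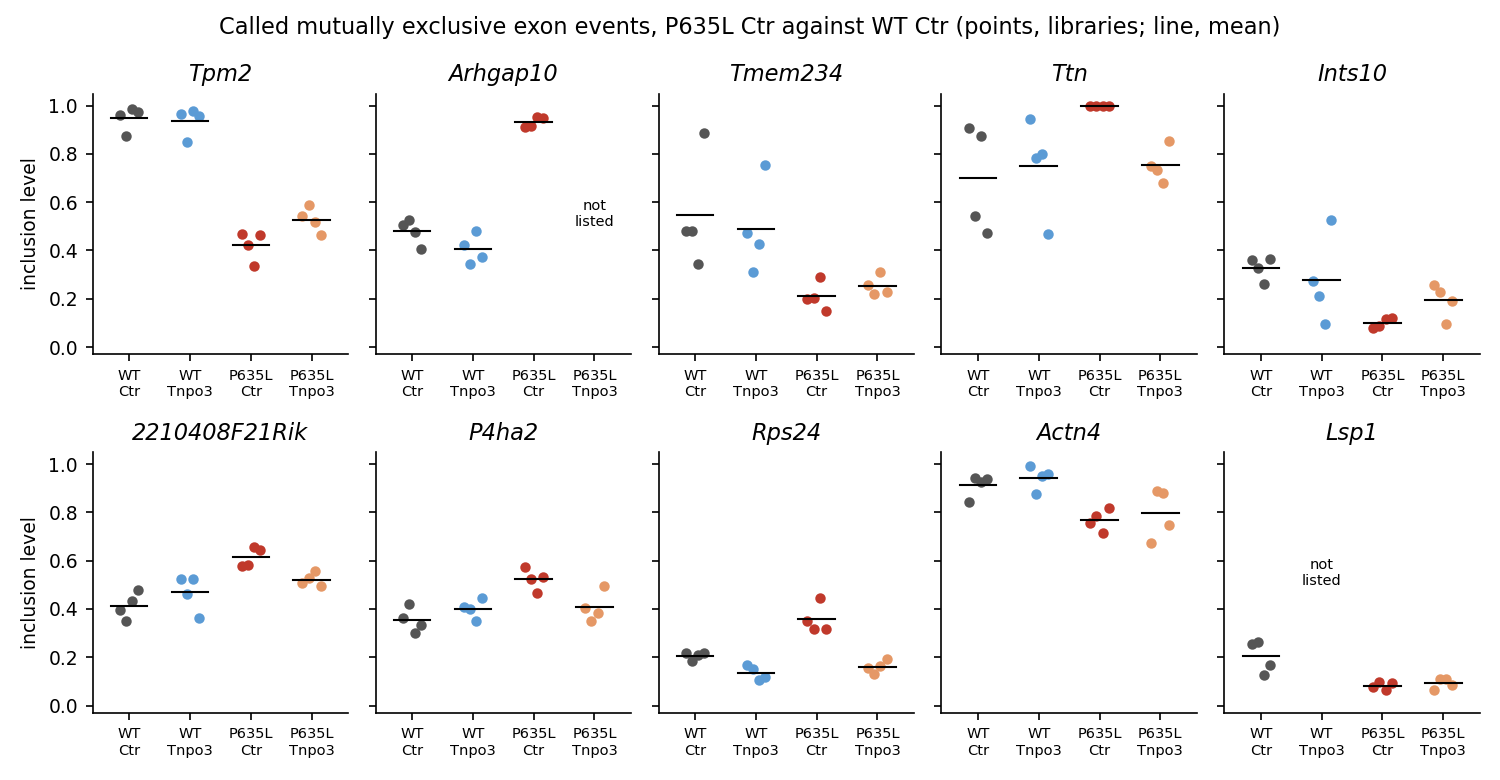
Inclusion level of the upstream exon (y axis) in each library of the 4 groups (x axis) for the leading called event of each of the 10 genes, with a line at the group mean. Libraries of WT Ctr and P635L Ctr do not overlap in any panel; in Rps24 and Ttn the P635L Tnpo3 libraries lie apart from P635L Ctr, and in Tpm2 both P635L groups lie far below both WT groups.

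Among RBM20 targets, the called exon pairs lay in Ttn. Of 140 exon pairs tested in 19 of 28 RBM20 target genes, 2 rose and 1 fell (2.14%), all in Ttn. Over all 2915 pairs tested 0.515% were called. The median absolute difference was 0.0265 against 0.0275 over all pairs. Of 103 pairs in sarcomere and Z-disc genes, 2 rose (both Ttn) and 2 fell (Tpm2 and Ttn), a share of 3.88%. None of 27 pairs in calcium-handling genes and none of 20 in genes of splicing regulators was called by edgeR. Over all pairs 8 rose and 7 fell.

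Several of these genes had MXE differences with an adjusted p under 0.05 in edgeR, below the minimum difference for a call. Ldb3, which encodes the Z-disc protein cypher, had levels of 0.985, 0.997, 0.988 and 0.991 in WT Ctr and 0.93, 0.927, 0.942 and 0.962 in P635L Ctr (edgeR adjusted p = 2.35e-05). As a skipped exon, the same Ldb3 exon (chr14:34298943-34299301) fell much further, from 0.96 ± 0.0114 to 0.656 ± 0.0259 (edgeR adjusted p = 1.3e-09). Asph, which encodes aspartyl hydroxylase and junctin of the calcium store, had 0.931 ± 0.0308 and 0.839 ± 0.0422 (edgeR adjusted p = 0.0458). Myoz2, a calcineurin-binding Z-disc protein, had 0.0107 ± 0.00206 and 0.0245 ± 0.00387 (edgeR adjusted p = 0.000411). For Tnnt2, cardiac troponin T, several events hold the same upstream exon, so no single edgeR value is given. In the authors' deposited table, 1 of these Tnnt2 events had an FDR of 0.016 at a difference (WT Ctr minus P635L Ctr) of 0.007. The others had a difference of 0.002 and an FDR of 0.92 or more. The libraries of both groups did not overlap in Ldb3, Asph and Myoz2.

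Among exclusive pairs known from textbooks, Tpm2 and Actn4 were called. In 25 of 38 such genes 38 pairs were tested: none rose, 2 fell (5.26%) and 36 were not called, against 0.515% over all pairs tested. The median absolute difference was 0.017 against 0.0275. The list was chosen with results of these data known, so its share is a description. Tpm1, the main tropomyosin of heart muscle, used the downstream exon of its 76-base pair almost alone, with 40 to 74 reads of the upstream exon in WT Ctr against 126880 to 183996 of the downstream exon, and a mean level of 0.0 in both groups. The Tpm3 pair, also of 76 bases, had 0.862 ± 0.0509 and 0.86 ± 0.0237 (edgeR adjusted p = 0.956). Of these 3 tropomyosin genes, Tpm2 alone had a called change at its 76-base pair, and Tpm1 had far more reads than Tpm2.

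Pkm and Slc25a3 mainly used the exon of the muscle form. Pkm, pyruvate kinase, uses its upstream exon for the M1 form of adult muscle and its downstream exon for the M2 form of growing cells. Its levels were 0.893, 0.94, 0.919 and 0.923 in WT Ctr and 0.897, 0.915, 0.939 and 0.926 in P635L Ctr, fully overlapping (edgeR adjusted p = 0.998). Slc25a3, the mitochondrial phosphate carrier, uses its upstream 125-base exon for the form of heart and skeletal muscle. Its levels were 0.929 ± 0.00904 and 0.92 ± 0.0255 (edgeR adjusted p = 0.865).

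Among channels and receptors, Cacna1c, the cardiac L-type calcium channel, had 0.983 ± 0.0287 and 0.958 ± 0.0277 at a pair of 104-base exons (edgeR adjusted p = 0.996). Its 84-base pair had 0.239 ± 0.0505 and 0.261 ± 0.0153. Fgfr1 had 0.00925 ± 0.0185 and 0.00875 ± 0.00737, with nearly all reads from the downstream exon of the mesenchymal receptor form. It had too few reads of the upstream exon to be tested. Itga7, the laminin-binding integrin subunit of muscle, had 0.265 ± 0.0623 and 0.256 ± 0.0464 (edgeR adjusted p = 0.944).

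Among signalling and transcription genes, the stress-kinase genes Mapk9 and Mapk10 carry 72-base pairs used in opposite ways, with 0.0538 ± 0.0596 and 0.952 ± 0.0685 in WT Ctr. P635L Ctr had 0.0645 ± 0.0531 and 0.915 ± 0.0683. Mef2d, a transcription factor of muscle genes, used both exons about equally in WT Ctr, with levels of 0.5, 0.515, 0.525 and 0.505, and had 0.61, 0.637, 0.669 and 0.55 in P635L Ctr. These libraries did not overlap (exact permutation p = 0.0286, the smallest that 4 against 4 libraries allow, two-sided), but the edgeR adjusted p over all events was 0.509, with 32 to 218 reads per WT Ctr library. Mef2c had 0.812 ± 0.112 and 0.895 ± 0.0417 (edgeR adjusted p = 0.521), and Actn1, α-actinin-1, 0.393 ± 0.126 and 0.506 ± 0.0293 (edgeR adjusted p = 0.503).

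**Figure D5:**
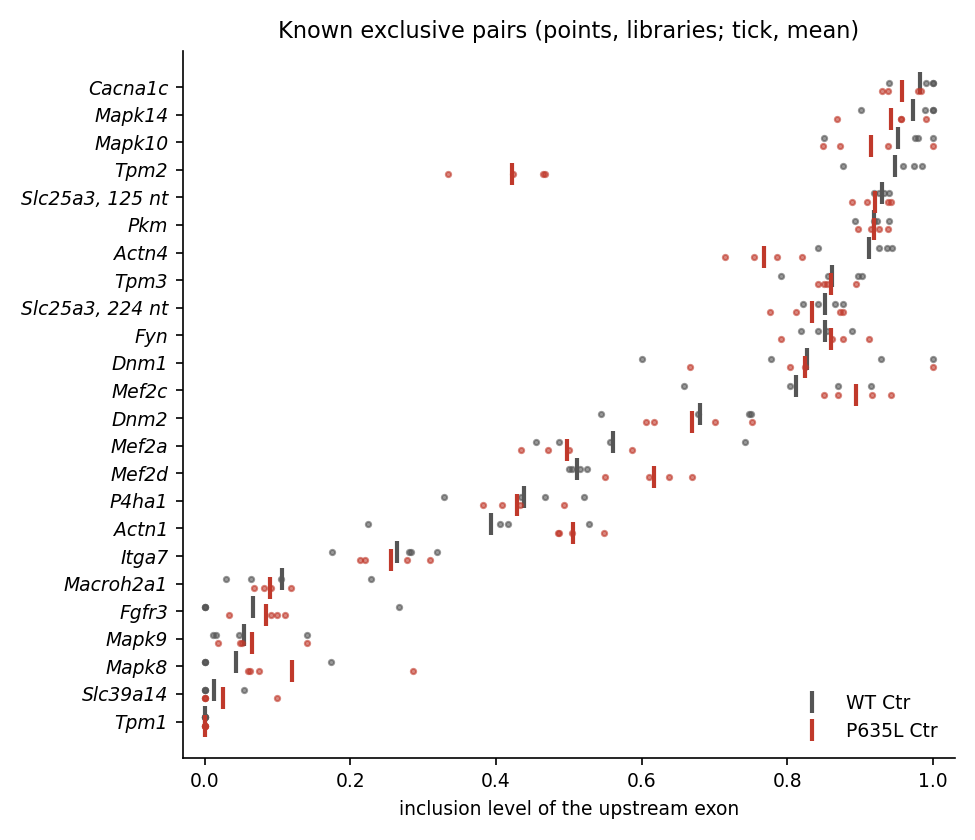
Inclusion level of the upstream exon (x axis) for known pairs whose exons are exclusive in the annotation, ordered by the WT Ctr mean (y axis), with points for libraries and ticks for the means of WT Ctr and P635L Ctr. Tpm2 (0.948 and 0.423) has the widest gap between both groups, and most other pairs lie on top of each other.

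WT Tnpo3 was compared with WT Ctr to ask what the Tnpo3 virus does in wild type hearts. No event of any type was called among 15715 tested (0.0%), and none of the 2511 MXE events, by edgeR or by DESeq2. At an unadjusted p under 0.05 in edgeR there were 54 MXE events. By the FDR in the authors' deposited table, 13 of 2671 MXE events (0.487%) and 300 of 31883 events of all types (0.941%) passed. Tpm2 levels in WT Tnpo3 were 0.965, 0.849, 0.976 and 0.957, overlapping with WT Ctr (edgeR adjusted p = 0.994). Rps24 had 0.169, 0.15, 0.107 and 0.12, all below WT Ctr (0.183 to 0.216; exact permutation p = 0.0286), with an edgeR adjusted p of 0.971. The FDR of this Rps24 event in the authors' deposited table was 0.00165.

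P635L Tnpo3 was compared with WT Ctr to ask which choices differ between mutant hearts given Tnpo3 and wild type hearts given the control virus. Of 2981 MXE events 4 were called (0.134%), against 23 of 17083 events of all types (0.135%; 0.0761% higher and 0.0585% lower), with 1 higher and 3 lower. By the FDR in the authors' deposited table, 63 of 3154 passed (2.0%; 2.12% of all types). Tpm2 had the smallest adjusted p. Its levels were 0.541, 0.589, 0.518 and 0.464, all below WT Ctr (difference -0.42, edgeR adjusted p = 8.06e-09). The others were Ttn, Mndal and Popdc2, and none of these events was called between P635L Ctr and WT Ctr.

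The Ttn pair called here (upstream exon chr2:76684494-76684562, 69 bases) had levels of 0.192, 0.063, 0.0 and 0.03 in WT Ctr and 0.351, 0.187, 0.259 and 0.496 in P635L Tnpo3, and the groups overlapped (exact permutation p = 0.0571; edgeR adjusted p = 0.0281). WT Ctr positions 1 and 3 had 11 and 12 reads. No P635L Ctr level is given for this Ttn event. Mndal, a nuclear protein of the interferon-inducible p200 family with near-identical neighbours, had 0.407 ± 0.0575 in WT Ctr, 0.239 ± 0.0671 in P635L Ctr and 0.202 ± 0.0259 in P635L Tnpo3 (difference to WT Ctr -0.205, edgeR adjusted p = 0.0217). Popdc2, a membrane protein of heart muscle that binds cyclic AMP, had 0.801 ± 0.0402, 0.716 ± 0.0465 and 0.684 ± 0.0294 (difference -0.117, edgeR adjusted p = 0.043). The Mndal and Popdc2 exons occur together only in the annotation. Listed as a skipped exon, the Popdc2 exon had 0.996 ± 0.001 in WT Ctr and 0.992 ± 0.00512 in P635L Tnpo3 (edgeR adjusted p = 0.563).

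Of these 4 calls only Tpm2 stayed without any 1 library. The Ttn call was lost without P635L Tnpo3 position 1 or 4 or WT Ctr position 2 or 4, Mndal without P635L Tnpo3 position 3 or 4 or WT Ctr position 1, 2 or 4, and Popdc2 without any library but WT Ctr position 3 (edgeR adjusted p up to 0.256). The count was 1 without P635L Tnpo3 position 4 or WT Ctr position 4, 2 without P635L Tnpo3 position 1 or 3 or WT Ctr position 1 or 2, and 6 without WT Ctr position 3.

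P635L Tnpo3 was compared with P635L Ctr to ask what Tnpo3 changes in mutant hearts. Over MXE events held in both tables, 2 of 2068 were called (0.0967%), both lower, in Ttn and Rps24, against 55 of 18215 events of all types (0.302%; 0.137% higher and 0.165% lower). A further 10 MXE events had an adjusted p under 0.05 in edgeR with a difference under 0.1. The Ttn event at chr2:76692694-76692771, without a read of the downstream exon in P635L Ctr, had 55, 18, 45 and 13 such reads in P635L Tnpo3 beside 158, 48, 93 and 73 of the upstream exon. Levels were 0.748, 0.733, 0.681 and 0.853 (difference to P635L Ctr -0.246, edgeR adjusted p = 0.000361). They lay within the wide range of WT Ctr and below P635L Ctr, where any read of the downstream exon gives a lower level. The event stayed called without any 1 library. The other listed event of this exon, with -0.075 between WT Ctr and P635L Ctr, had 0.001 between WT Ctr and P635L Tnpo3 (authors' rMATS FDR 0.621).

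Rps24 had levels of 0.154, 0.132, 0.165 and 0.191 in P635L Tnpo3, all below the 0.316 to 0.444 of P635L Ctr (difference -0.196, edgeR adjusted p = 0.000514), and this call too stayed without any 1 library. As a skipped exon its listed exon fell from 0.424 ± 0.0676 to 0.202 ± 0.0305 (edgeR adjusted p = 0.000506). WT Ctr had 0.206 ± 0.0158 and P635L Tnpo3 0.161 ± 0.0245 in the MXE event (edgeR adjusted p = 0.454). The interaction of virus and genotype in Rps24 was -0.127 (edgeR adjusted p = 0.739). The comparisons of P635L Ctr with WT Ctr and with P635L Tnpo3 share the P635L Ctr libraries, and all comparisons with WT Ctr share its libraries.

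Tpm2 and Arhgap10 stood differently. Tpm2 differed between the P635L groups by 0.105, with overlapping libraries (exact permutation p = 0.0857, edgeR adjusted p = 0.282). Its expression was 137 ± 62.5 CPM in P635L Tnpo3 (log2 fold change to P635L Ctr -0.5, SE 0.25, edgeR adjusted p = 0.309; 724 of 18662 genes, 3.88%, changed). Fibroblast markers fell in 5 of 8 genes between these groups, Tnnt3 fell to 3.45 ± 1.75 CPM and Tnni2 had 13.6 ± 4.13 CPM. The leading Arhgap10 event is not listed in the table of P635L Tnpo3, but its exon as a skipped exon had 0.575 ± 0.0329 there, against 0.917 ± 0.0286 in P635L Ctr (edgeR adjusted p = 1.25e-05) and 0.445 ± 0.0844 in WT Ctr (edgeR adjusted p = 0.369).

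The other named pairs were not called between the P635L groups. P4ha2 had 0.408 ± 0.0632 in P635L Tnpo3 (edgeR adjusted p = 0.311), Actn4 0.798 ± 0.106 (0.848), Ints10 0.193 ± 0.0692 (0.387), Tmem234 0.254 ± 0.0411 (0.768) and Lsp1 0.0912 ± 0.0212 (0.923). Below the minimum difference, Ldb3 had 0.978, 0.989, 0.972 and 0.981 in P635L Tnpo3 (edgeR adjusted p = 0.0079 against P635L Ctr), with a mean between those of P635L Ctr and WT Ctr. Its skipped-exon level rose from 0.656 ± 0.0259 in P635L Ctr to 0.935 ± 0.0186 in P635L Tnpo3 (edgeR adjusted p = 2.48e-07). Nexn, which encodes nexilin of the Z-disc, had 0.181, 0.171, 0.178 and 0.203 against 0.122, 0.096, 0.104 and 0.132 in P635L Ctr (difference 0.0698, edgeR adjusted p = 0.0422). WT Ctr had 0.148 ± 0.0209 in Nexn. In the authors' deposited table the difference of WT Ctr minus WT Tnpo3 was -0.047 in this event (FDR 0.00645). That of WT Ctr minus P635L Tnpo3 was -0.035 (FDR 0.0312). By edgeR no MXE event had an adjusted p under 0.971 between WT Tnpo3 and WT Ctr.

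Whether the virus acted differently in both genotypes was tested as an interaction over the 16 libraries. Of 1743 MXE events 2 were called (0.115%), both in Ttn and both lower, against 10 of 19021 events of all types (0.0526%; 0.00526% higher and 0.0473% lower). The event at chr2:76692694-76692771 changed by 0.0493 with Tnpo3 in WT and by -0.246 in P635L, an interaction of -0.295 (edgeR adjusted p = 0.017). That at chr2:76693144-76693203 changed by 0.0443 and -0.0965, an interaction of -0.141 (edgeR adjusted p = 0.017). Both events share reads at neighbouring exons. The Ttn gene level varied widely among the WT libraries, as given above. Both calls were lost without P635L Ctr position 2 or 3 or P635L Tnpo3 position 3, and 1 was lost without WT Ctr position 4. The interaction of Tpm2 was 0.117 (edgeR adjusted p = 0.785).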

How the data were processed

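RNA of 16 mouse left ventricles was sequenced as poly(A) libraries, 4 per group. STAR 2.7.9a, featureCounts 2.0.6, DESeq2 and the build GRCm39 are named in the submitters' processing notes. The authors deposited raw counts per gene, with 1 named column per library, and 3 rMATS tables with junction counts of both forms per library, inclusion levels from 0 to 1 and p-values with FDR, per the file headers. The deposited difference in level is a score from -1 to 1, WT Ctr minus the other group. No per-sample column was left unmapped (0 unused). The DESeq2 tables were not used.

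All 5 event types were fitted together with edgeR 4.0.16 in R 4.3.3 (robust quasi-likelihood, a term per library, Benjamini-Hochberg adjustment). Events needed a mean of 10 junction reads per library in both groups and 10 reads of the rarer form in all. This last minimum was added after a test on simulated data and departs from the design as first written. With it, 18559 events of P635L Ctr against WT Ctr were simulated with 200 changed. Of differences of 0.2 and 0.4, 36% and 67% were recovered, and 2.83% of calls were false. Without it, on 34810 events, 44% and 81% were recovered and 14.4% of calls were false. For P635L Tnpo3 against P635L Ctr (18443 events) the values were 50%, 77% and 3.05% with the minimum. Without it (29476 events) they were 55%, 83% and 8%. The P635L groups were joined over coordinates held in both tables. WT Ctr reads were the same in 2216 of 2220 events shared by tables (99.82%). Genes were tested with edgeR (TMM, all 16 libraries), and DESeq2 1.42.0 was an alternative. Differences are second group minus first.

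Named events are the called exon pairs by absolute difference, 1 per gene, plus all pairs in the gene lists. The members and lists were chosen with earlier results of these data known. Alternatives covered the minimum difference, read minimum, tool, dispersion and each library left out. Exact permutation tests were two-sided over 70 assignments of 8 libraries. Limits for a count of 0 use 3 reads and cover counting error only. P-values concern the spread between these mice. Only the exact permutation p-values use that spread alone, while edgeR also draws on dispersion estimates shared over all events or genes fitted. Partner exons were matched by length and spacing to GENCODE M21 (GRCm38), without converting coordinates. Some genes are not reported here.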

Additional observations from a re-analysis of the deposited data

Results flagged for a closer look

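The Tpm2 inclusion level of WT Tnpo3 at listed position 2 was 0.849, while the 3 other WT Tnpo3 libraries lay between 0.957 and 0.976. Its gap to the nearest library, as a share of the range of the group, was above Dixon's critical value for 4 samples. Of 48 groups of 4 levels this was the 1 that passed, and chance alone gives about 1 in 20.

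The effect of the Tnpo3 virus on 2 Ttn events differed between genotypes in the edgeR test of the difference itself. The event at chr2:76692694-76692771 gave -0.295 and that at chr2:76693144-76693203 gave -0.141 (virus effect in P635L minus virus effect in WT, adjusted p = 0.017 in edgeR for both). Levels with Tnpo3 were lower in 4 of 4 P635L Tnpo3 libraries than in any P635L Ctr library at both events. The P635L Ctr libraries had no read of the downstream exon, so their levels had no spread. Both calls were lost without P635L Ctr position 2 or 3 or without P635L Tnpo3 position 3.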

How the results depend on the processing

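Of the 16 MXE calls between P635L Ctr and WT Ctr, 10 had a difference of at least 0.2, and 25 events passed with no minimum difference. The count was 72 by the FDR in the authors' deposited table, 4 with a trended dispersion and 12 with DESeq2 (12 shared), and 11 to 15 with each library left out (10 to 13 shared). The 4 calls between P635L Tnpo3 and WT Ctr became 63 by the FDR in the authors' deposited table, 2 with DESeq2, 7 with no minimum on the rarer form, 1 with a trended dispersion and 1 to 6 with each library left out. WT Tnpo3 against WT Ctr had 0 calls, and 13 by the FDR in the authors' deposited table. Between the P635L groups the 2 calls became 1 at a difference of 0.2, 12 with no minimum difference and 1 with a trended dispersion. The 2 interaction calls became 1 at a difference of 0.2, 1 without the robust option, 0 with a trended dispersion and 0 to 3 with each library left out. The trended dispersion and the missing minimum on the rarer form were chosen after seeing the data. Among the leading events of P635L Ctr against WT Ctr, the trended dispersion kept only the Tpm2 and Arhgap10 calls. It ended those of Rps24 (edgeR adjusted p = 0.151), Ttn (0.0883), Ints10 (0.0883), Actn4 (0.204) and Lsp1 (0.203). P4ha2 (0.32), Tmem234 (0.391) and 2210408F21Rik (0.298) were lost too, as was Rps24 between the P635L groups (0.076). Without a minimum on the rarer form, edgeR lost P4ha2 (0.0615) and 2210408F21Rik (0.0562). DESeq2 ended the calls of Tmem234 (adjusted p = 0.214), P4ha2 (0.0681), Actn4 (0.0611) and Lsp1 (0.0673) against WT Ctr, and those of Ttn (chr2:76684494-76684562, 0.148) and Popdc2 (0.239) in P635L Tnpo3. The leading event of each called gene kept its direction under every alternative run; the other called events and the interactions were recomputed only as counts.

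The 724 genes changed between the P635L groups became 1388 with DESeq2, 2846 with only the 8 libraries of both groups, 1482 without the 3 libraries rich in ENSMUSG00000119584 and 282 to 591 with each library left out. The cause of these moves was not tested. With a replicate block the counts were 2459 in place of 2653 (P635L Ctr against WT Ctr) and 663 in place of 724. Deviations of same-numbered libraries correlated at -0.212 to 0.157 and -0.058 to 0.141. Differently numbered libraries were not compared in this way, so these values do not settle whether the samples are paired. No paired analysis was possible for the events because the splicing tables carry no replicate numbers. Events with few reads limit what could be detected, and overlapping events share reads.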
